A study of Rattus norvegicus with 6 samples.

Results

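The genes described here encode aminoacyl-tRNA synthetases, the enzymes that join each amino acid to its transfer RNA. They are 36 of the 28358 genes in the tables, matched by name: 20 that act in the cytosol and 16, named with the suffix 2, that act in mitochondria. The family was selected on earlier results of this same comparison, in which 6 cytosolic members were among the 12 genes with the smallest p of those higher with spironolactone. The differences between the groups are therefore given as a description of these libraries, and they do not count as independent evidence. The libraries were made from neuroretina RNA. The animals were male Goto-Kakizaki (GK) rats, an inbred strain with diabetes, that were 14 months old and had all received 1 injection of 5 µL of PLGA microspheres into the vitreous 2 months earlier. The 3 non-loaded libraries came from eyes whose microspheres carried no drug, and the 3 spironolactone libraries from eyes whose microspheres carried 6.2 µg of spironolactone, a mineralocorticoid receptor antagonist. No uninjected or non-diabetic group is part of the design. The labels do not say whether each library came from a separate animal, so the spread between libraries may be partly technical.

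As a rule a synthetase recognises a single amino acid and the transfer RNAs that carry it, and the charged transfer RNAs are what the ribosome uses to build protein. Most amino acids have separate genes for the cytosolic and the mitochondrial enzyme. Gars and Kars are known to encode both forms and are counted here with the cytosolic genes. The split by name is therefore not a full split by compartment. Eprs encodes a fused enzyme for glutamate and proline, and Farsa and Farsb encode the subunits of the cytosolic phenylalanine enzyme. Several cytosolic synthetases are held together in a multi-synthetase complex on the scaffold proteins encoded by Aimp1, Aimp2 and Eef1e1. Many cytosolic synthetase genes are known targets of the transcription factor ATF4, which cells use when amino acids are short or when the endoplasmic reticulum is stressed.

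The libraries held between 9996198 and 12589466 expected counts, and 13242 genes passed the filter on low counts. Markers of rods, cones, bipolar cells, Müller glia and ganglion cells were all present, as the label of neuroretina requires. Levels are given as CPM, counts scaled to libraries of one size with TMM factors. The summed level reached at most 2.23 CPM for 5 lens markers, with Mip and Lim2 at 0, and 6.91 CPM for 5 blood leukocyte markers. Erythrocyte markers summed to 30.1 to 41.2 CPM in the non-loaded and 22.1 to 51.8 CPM in the spironolactone libraries. For oligodendrocyte markers the sums were 21.5 to 22.3 CPM and 16.2 to 19.5 CPM. Neither list held a called gene. Spironolactone replicate 1 stood apart by the corneal keratin gene Krt12, at 25.1 CPM against 0.202 to 1.89 CPM in the other libraries. Some rod markers moved with the groups. Of 5, 2 were lower with spironolactone (Gnat1 and Nr2e3), while Pde6a, Pde6b and Nrl were not called and their groups overlapped. The summed level of the 5 was 14948 to 19344 CPM in the non-loaded and 12552 to 13695 CPM in the spironolactone libraries. Gnat1, at 7662 to 11363 CPM and 5482 to 6541 CPM, was the largest part of that sum in every library. The sum of 6 pigment epithelium markers was 32.6 to 36.6 CPM and 22.2 to 31.7 CPM, with 0 of 5 tested called. The part of any of these marker lists in the synthetase differences was not tested. No tested marker of cones, bipolar cells, Müller glia, ganglion cells, microglia or endothelium was called. In bulk tissue, fewer cells of a type and less RNA per cell cannot be told apart.

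In the non-loaded retinas the cytosolic genes were expressed at a higher level than most mitochondrial ones. On the scale of TPM (a level corrected for gene length and library size), Aars, the alanine enzyme, stood first at 295 ± 40.5 TPM (SD, n = 3), followed by Sars for serine at 177 ± 9.37 TPM and Nars for asparagine at 149.6 ± 12.9 TPM. The ranges of Aars and Sars, and of Sars and Nars, did not overlap. From Nars down to Qars each gene overlapped the next in order, so that Yars (123 ± 28.1 TPM), Gars (106 ± 13.4 TPM), Kars (98.5 ± 6.41 TPM) and Mars (95.9 ± 17.5 TPM) were not separated from their neighbours by more than their spread. Farsb was lowest at 40.4 ± 0.768 TPM and lay below Qars (47.8 ± 3.03 TPM) without overlap. The median over the 20 cytosolic genes was 71.9 TPM.

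Of the mitochondrial genes, Iars2 (40.6 ± 1.38 TPM) and Tars2 (39.3 ± 2.61 TPM), for isoleucine and threonine, were highest and overlapped. Hars2 (30.2 ± 4.97 TPM) and Vars2 (29.8 ± 0.875 TPM) came next, and Ears2 (3.94 ± 0.404 TPM) and Pars2 (2.92 ± 0.154 TPM), for glutamate and proline, were lowest, each apart from its neighbour. The median of the 15 detected genes was 14.8 TPM. Mars2, the mitochondrial methionine gene, had 0 counts in all 6 libraries, which allows a level of up to 0.304 CPM in the shallowest library (3 counts, counting error only). For the 14 pairs of a cytosolic gene and a detected mitochondrial counterpart (Fars2 serves for both Farsa and Farsb), the level of the cytosolic gene was 1.29 times that of the mitochondrial one for Iars and Iars2, the lowest ratio, and 21.4 times for Aars and Aars2, the highest. The median ratio was 3.73.

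The study compared spironolactone-loaded with non-loaded microspheres. Of the 20 cytosolic synthetase genes, all of which passed the filter, 11 were called higher with spironolactone and 0 lower, called meaning an adjusted p below 0.05 in edgeR's quasi-likelihood test over all 13242 genes. Over all tested genes 1.87% were called higher and 0.763% lower. The median log2 fold change of the 20 genes was 0.55, against −0.0027 over all tested genes, and 19 of 20 values were above 0. Of the 15 mitochondrial genes tested, 0 were called in either direction, with a median of 0.013. In edgeR 2 of these 15 had an unadjusted p below 0.05, against 15.8% of all tested genes. Limma-voom called 0 of the 15, and DESeq2 0 of the 8 to which it gave an adjusted p; it gave none to the other 7, which include Wars2. All 11 called genes were among the 50 genes with the smallest p in the table. In 14 cytosolic genes every spironolactone library lay above every non-loaded one, as it did for 11.4% of all tested genes.

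**Figure D1:**
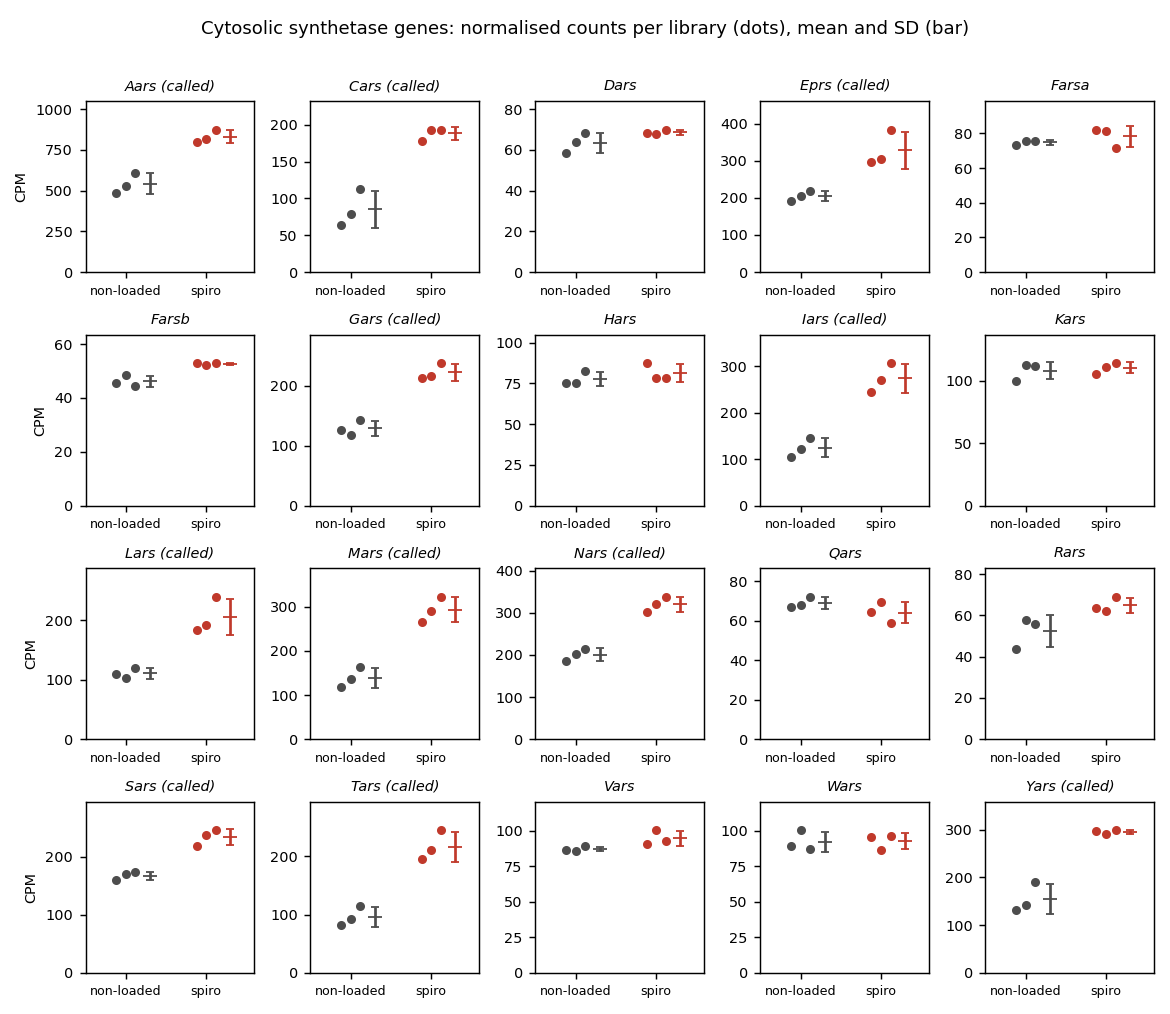
Normalised counts (CPM, linear axis from 0) of the 20 cytosolic synthetase genes, with 1 dot per library, 3 non-loaded (grey) and 3 spironolactone (red, "spiro"), and the mean with its SD beside them. The 11 genes marked as called have 2 separate groups of dots, while Dars, Farsa, Hars, Kars, Qars and Wars overlap.

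Among the members of the multi-synthetase complex, Iars, Mars, Lars and Eprs were higher. Where a pair of value sets follows a gene, the non-loaded replicates 1 to 3 come first and the spironolactone replicates 1 to 3 second. Iars, which charges isoleucine, measured 106, 123 and 147 CPM in the non-loaded and 246, 269.9 and 307 CPM in the spironolactone libraries. Its log2 fold change was 1.13 ± 0.10 (SE), the largest in the complex. Mars, for methionine, measured 118, 136 and 163 CPM without and 267, 291 and 323 CPM with the drug, a log2 fold change of 1.08 ± 0.094. In both genes non-loaded replicate 3 was the highest of its group, yet it stayed well below the lowest spironolactone library. Lars, for leucine, had 109, 103 and 120.2 CPM in the non-loaded group and 183, 193 and 239.6 CPM in the other, with a log2 fold change of 0.89 ± 0.087. For Eprs, the glutamate and proline enzyme, the values were 193, 204 and 219 CPM and 296, 304 and 384 CPM, and the log2 fold change was 0.67 ± 0.084. Spironolactone replicate 3 was the highest library for both Lars and Eprs, and the groups did not overlap.

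The other 4 enzymes of the complex, Dars, Kars, Qars and Rars, were not called. Rars, for arginine, came nearest. Its libraries held 43.6, 57.9 and 56.1 CPM and 63.7, 62.2 and 69.1 CPM, a log2 fold change of 0.30 ± 0.093 (edgeR, adjusted p = 0.104), and non-loaded replicate 1 was low in its group. Without a filter on low counts Rars passed (adjusted p = 0.0204). Dars, for aspartate, measured 58.6, 63.7 and 68.3 CPM and 68.5, 67.6 and 70.00 CPM, a log2 fold change of 0.11 ± 0.071. Kars, for lysine, measured 100.3, 113 and 112 CPM and 106, 111 and 114 CPM (0.029 ± 0.063 on the log2 scale). For Qars, the glutamine enzyme, the values were 66.9, 67.9 and 72.3 CPM and 64.7, 69.3 and 58.7 CPM, and its log2 fold change of −0.10 ± 0.074 was the only one of the cytosolic genes below 0. The groups overlapped for Dars, Kars and Qars, and the adjusted p of these 3 lay between 0.492 and 0.885. The complex thus held 4 called genes of 8, and the free cytosolic synthetases 7 of 12, with median log2 fold changes of 0.49 and 0.55. None of the 3 scaffold genes was called, and the smallest p were those of Eef1e1 (0.11 ± 0.079) and Aimp1 (0.042 ± 0.10).

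Outside the complex, Tars, Cars, Yars, Gars, Nars, Aars and Sars were higher. Tars, the threonine enzyme, had the largest log2 fold change of the family at 1.17 ± 0.10, with 81.3, 93.1 and 115 CPM in the non-loaded and 195, 211 and 245 CPM in the spironolactone libraries. Cars, for cysteine, measured 63.6, 79.4 and 113 CPM and 179, 193 and 193 CPM, a log2 fold change of 1.14 ± 0.13. Its non-loaded values differed most relative to their mean: replicate 3 stood at 113 CPM and replicate 1 at 63.6 CPM. With robust empirical Bayes shrinkage Cars was not called (adjusted p = 0.11). Yars, the tyrosine enzyme, measured 131, 141 and 191 CPM without and 297, 291 and 299 CPM with the drug, a log2 fold change of 0.93 ± 0.10. Its spironolactone libraries were close together, whereas non-loaded replicate 3 stood above the other non-loaded ones.

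Gars, for glycine, measured 126, 118 and 143 CPM and 213, 216 and 238 CPM, with a log2 fold change of 0.78 ± 0.072. For Nars the values were 186, 201 and 215 CPM and 303, 320.1 and 338 CPM, and the log2 fold change was 0.67 ± 0.065. Neither gene had a library that approached the other group. Aars measured 484, 532 and 611 CPM and 799, 816 and 875 CPM, a log2 fold change of 0.61 ± 0.074. The smallest difference among called members was that of Sars, at 159.6, 169 and 173 CPM and 218, 237 and 245 CPM, with a log2 fold change of 0.48 ± 0.061. Aars and Sars, the 2 genes of the family with the highest TPM, had smaller folds than Tars, Cars and Iars. Those 3 were among the 10 lowest cytosolic genes in the non-loaded group. Wars, Dars, Vars, Rars, Qars and Farsb were also among those 10 and had smaller folds than Sars, so the folds did not follow the level. All 11 called genes had groups that did not overlap, and their adjusted p lay between 5.26e-06 and 0.000228.

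Of the free enzymes, 5 genes were not called. Farsa and Farsb, whose products form 1 enzyme, measured 73.3, 75.7 and 75.6 CPM and 82.2, 81.6 and 71.4 CPM for Farsa (0.067 ± 0.069 on the log2 scale). Farsb measured 45.5, 48.5 and 44.6 CPM and 52.9, 52.3 and 52.8 CPM (0.19 ± 0.074, adjusted p = 0.217), and its groups did not overlap. Hars, for histidine, held 75.5, 75.1 and 82.4 CPM and 87.4, 78.4 and 78.04 CPM (0.064 ± 0.069), with overlapping groups. Vars, for valine, held 86.8, 86.1 and 88.97 CPM and 90.9, 100.5 and 92.8 CPM (0.12 ± 0.062), with a narrow gap between the groups. Wars, for tryptophan, a gene also known to be induced by interferon, measured 89.5, 100.5 and 87.2 CPM and 95.9, 86.4 and 96.2 CPM (0.0058 ± 0.070, adjusted p = 0.982). Its libraries were interleaved. By enzyme class, which reflects the fold of the catalytic domain, 6 of the 10 cytosolic genes of class I and 5 of the 10 of class II were called.

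**Figure D2:**
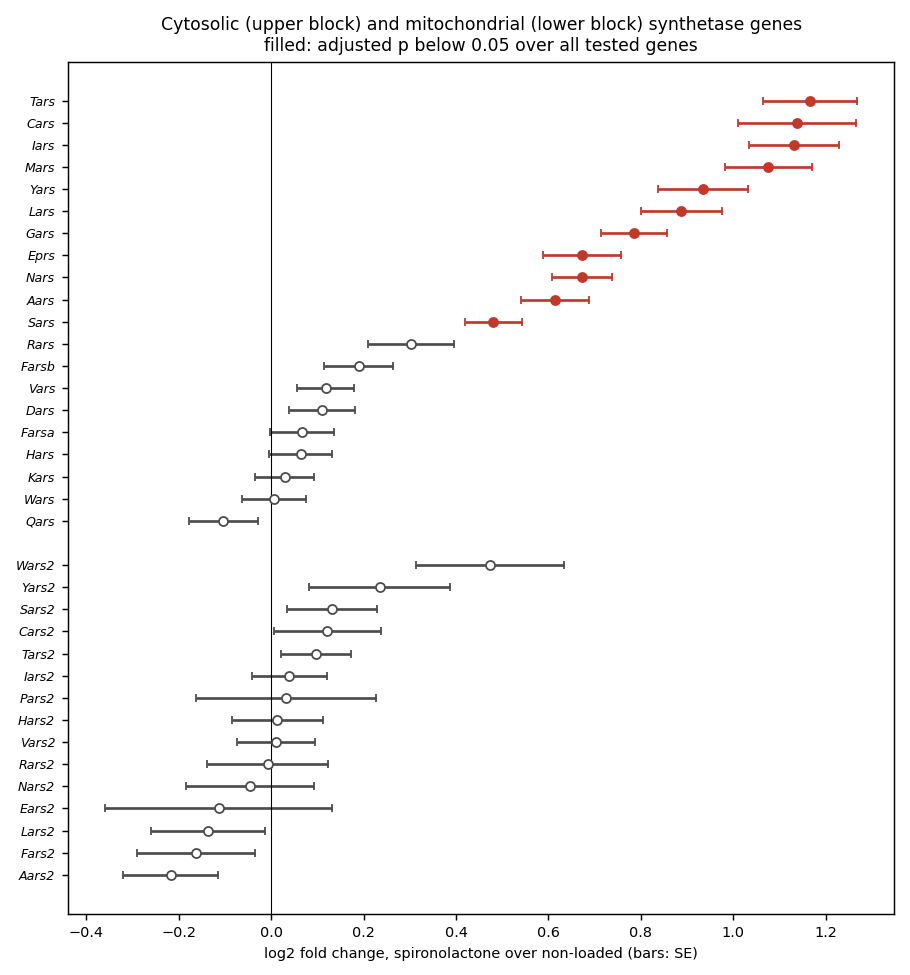
Log2 fold change of each tested synthetase gene, spironolactone over non-loaded, with its SE from edgeR, cytosolic genes in the upper block and mitochondrial genes in the lower. Filled points are called. The cytosolic values run from −0.10 (Qars) to 1.17 (Tars), and the mitochondrial ones from −0.22 (Aars2) to 0.47 (Wars2).

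No mitochondrial gene was called. Wars2, for tryptophan, had the largest difference, with 10.2, 8.46 and 8.55 CPM in the non-loaded and 13.9, 13.6 and 10.1 CPM in the spironolactone libraries. Its log2 fold change was 0.47 ± 0.16 (edgeR, adjusted p = 0.14), and spironolactone replicate 3 lay within the non-loaded range. Aars2, for alanine, measured 27.3, 28.8 and 27.96 CPM and 25.5, 26.1 and 20.7 CPM (−0.22 ± 0.10, adjusted p = 0.314). It was the only mitochondrial gene whose groups did not overlap, and it was lower with spironolactone, the opposite sign to its cytosolic counterpart. The share of all tested genes that lay wholly below is not reported here, so this gap has no background to be set against. Yars2, for tyrosine, held 7.99, 8.81 and 9.29 CPM and 11.2, 10.4 and 9.21 CPM (0.23 ± 0.15, adjusted p = 0.494), with spironolactone replicate 3 inside the non-loaded range. The log2 fold changes of the other 12 lay between −0.16 (Fars2) and 0.13 (Sars2). Ears2 (29 to 55 counts a library) and Pars2 (51 to 65 counts) had the fewest counts and the largest standard errors (−0.11 ± 0.25 and 0.032 ± 0.20), so that small changes in them were not detectable at this depth. The limit was not theirs alone: Wars2 was not called at 0.47 ± 0.16, while the cytosolic Sars was called at 0.48 ± 0.061. The lack of calls therefore does not show that no mitochondrial gene changed.

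**Figure D3:**
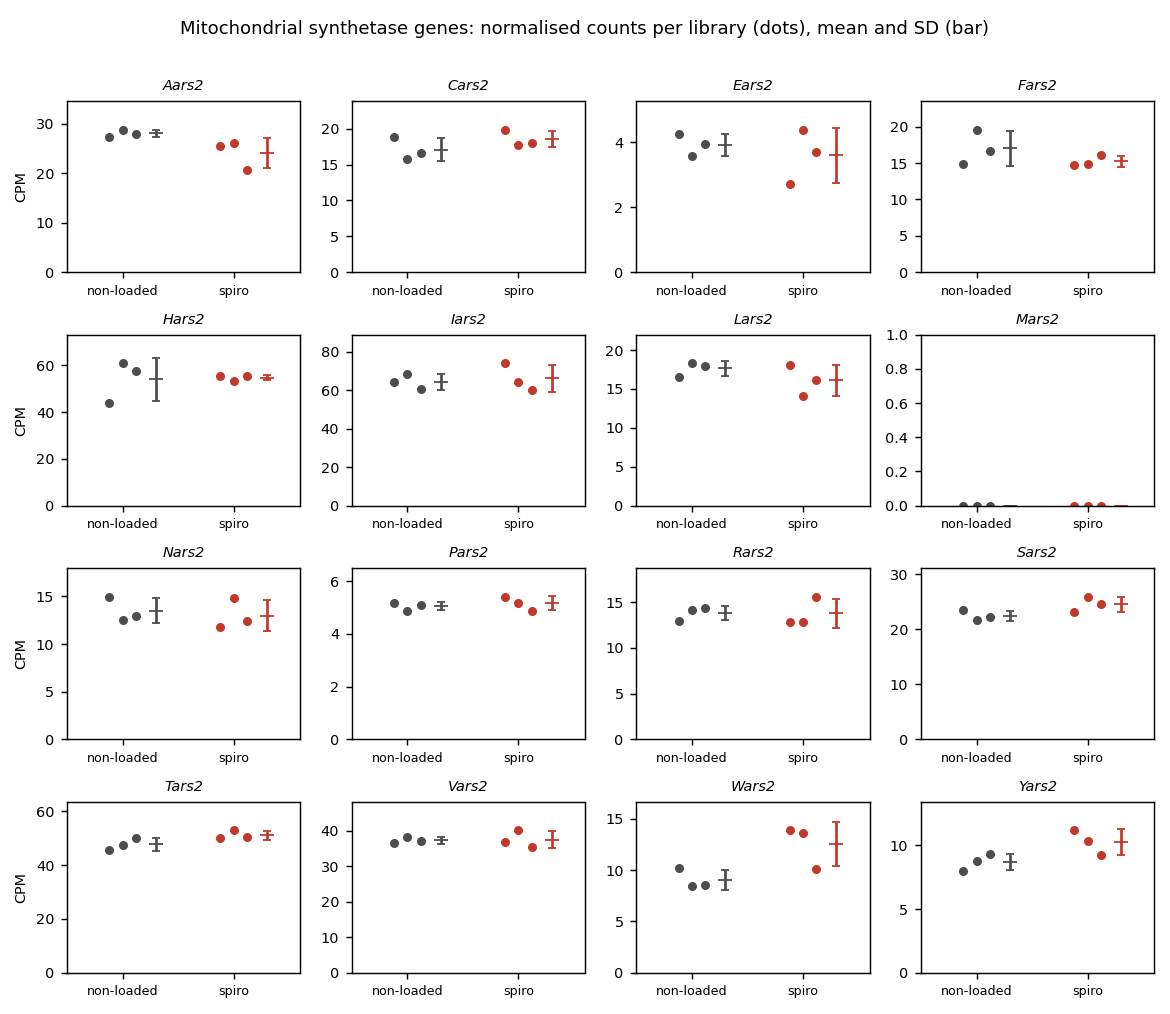
Normalised counts (CPM, linear axis from 0) of the 16 mitochondrial synthetase genes, with 1 dot per library, 3 non-loaded (grey) and 3 spironolactone (red, "spiro"), and the mean with its SD. The groups overlap for all but Aars2 among the 15 detected genes, and Mars2 is at 0 throughout.

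Set side by side for the same amino acid, the log2 fold change of the cytosolic gene was the larger in 13 of 14 pairs. The difference between the 2 values was largest for Iars and Iars2 (1.09), Tars and Tars2 (1.07), Lars and Lars2 (1.02) and Cars and Cars2 (1.02). It was smallest above 0 for Hars and Hars2 (0.051) and Vars and Vars2 (0.11). The exception was tryptophan, where the value of Wars was 0.47 below that of Wars2. The difference within pairs comes from the same comparison that brought the family forward and was not tested.

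Summed over the 20 cytosolic genes, the level was 1672, 1748 and 2050 TPM in the non-loaded and 2749, 2728 and 2941 TPM in the spironolactone libraries. The means were 1823 ± 200.1 and 2806 ± 118 TPM (SD, n = 3), a ratio of 1.54. The highest non-loaded library, replicate 3, stayed below all spironolactone libraries. The sum over the 16 mitochondrial genes was 269.9, 278 and 284 TPM without and 301, 289 and 279.5 TPM with the drug, a ratio of 1.04 between means of 278 ± 7.29 and 289.9 ± 10.7 TPM, and the groups overlapped. The order of the cytosolic genes by TPM also shifted: Cars moved from rank 16 in the non-loaded to rank 9 in the spironolactone group, Iars from 17 to 10 and Tars from 11 to 7, while Kars moved from 6 to 11.

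**Figure D4:**
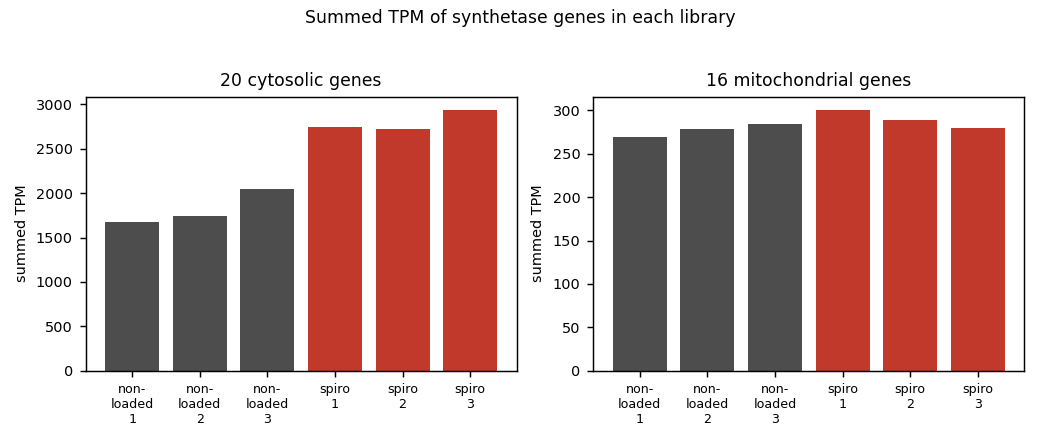
Summed TPM of the 20 cytosolic (left) and 16 mitochondrial (right) synthetase genes in each library, non-loaded in grey and spironolactone ("spiro") in red, with both axes starting at 0 but on different scales. The cytosolic bars lie between 1672 and 2050 in the non-loaded and between 2728 and 2941 in the spironolactone libraries.

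Within the non-loaded group the same library was often the highest for cytosolic genes. Non-loaded replicate 3 was the highest of the non-loaded libraries for 15 of the 20 cytosolic genes but for 3 of the 15 mitochondrial ones, and for 33.9% of all tested genes. Of the spironolactone libraries, replicate 1 was the lowest for 12 of the 20 cytosolic and 5 of the 15 mitochondrial genes. It was so for 35.5% of all tested genes. Non-loaded replicate 3 also had the lowest Gnat1 (7662 CPM) of its group. The part of this in its synthetase values was not tested. Each title ends the sample's name with a number of unstated meaning: 2, 3 and 4 for the non-loaded libraries, then 8, 10 and 11 for those with the drug. Relative to its non-loaded mean, the median cytosolic gene stood at −0.10, −0.021 and 0.097 (log2) in the non-loaded libraries, in that order. The spironolactone libraries, also in that order, had 0.45, 0.53 and 0.62. The cytosolic median thus rose with the title number inside both groups. For mitochondrial genes the values were −0.032, 0.018 and −0.0031, then 0.039, 0.060 and −0.050. The part of the title number in the cytosolic rise was not tested. With that number as a covariate 0 of the 20 cytosolic genes were called by edgeR, and 2 of the 35 tested members had an unadjusted p below 0.05, against 4.24% of all tested genes. The median log2 fold change of the cytosolic genes was then 0.20, and 10 of the 11 values of called genes stayed above 0. The number follows the group (r = 0.953 over the 6 libraries), so that its part and that of the drug cannot be told apart. All 11 genes were called whichever single library was left out, with log2 fold changes between 0.44 and 1.39 and adjusted p of at most 0.00752 in edgeR. That includes leaving out spironolactone replicate 1, the library with corneal keratin, which gave a median of 0.58.

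Other steps around transfer RNA charging were mostly not called. The lists were chosen with earlier results known. In mitochondria glutaminyl-tRNA is made by transamidation of a mischarged transfer RNA, and the initiator methionine is formylated. Of the 4 genes for these steps 0 were called, and Gatc (−0.10 ± 0.085), an amidotransferase subunit, and Mtfmt (−0.16 ± 0.18), the formyltransferase, had the smallest p. Of the 6 proofreading and related genes tested, 1 was called: Ptrh2, a peptidyl-tRNA hydrolase, with 35.8, 37.2 and 41.03 CPM and 50.9, 51.8 and 46.4 CPM (0.38 ± 0.084, adjusted p = 0.0204, edgeR). The groups did not overlap. Tarsl2, which resembles the threonine enzyme, measured 0.21 ± 0.10 and was not called. The counts were 0 of 5 for the selenocysteine route, 0 of 17 for transfer RNA maturation and export, 0 of 6 for the cytosolic elongation factors and 0 of 4 for the mitochondrial ones. The genes with the smallest p in these 4 lists were Sephs2 (−0.22 ± 0.084), which makes selenophosphate, Rpp30 (0.32 ± 0.11), a subunit of ribonuclease P, Eef1b2 (−0.23 ± 0.089), an exchange factor, and Gfm1 (0.17 ± 0.072), a mitochondrial elongation factor. The medians of these 4 lists lay between −0.10 and 0.039. For the amidotransferase and formylation genes the median was −0.013, and for the proofreading and related genes 0.14.

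The regulators of the amino acid response, a list also chosen with earlier results known, had 6 of 10 tested genes called, all higher. Over all tested genes 1.87% were called higher. The median of the list was 0.45, against −0.0027 over all tested genes. Atf3 measured 41.8, 46.8 and 83.4 CPM in the non-loaded and 121, 146 and 135 CPM in the spironolactone libraries (1.21 ± 0.16). Cebpb (1.15 ± 0.14), Atf5 (0.79 ± 0.10), Trib3 (0.53 ± 0.13), Cebpg (0.49 ± 0.069) and Ddit3 (0.40 ± 0.080) were the other calls, and all encode transcription factors except Trib3, a pseudokinase. Atf4 itself measured 776, 814 and 805 CPM and 853, 927 and 879 CPM (0.15 ± 0.056, adjusted p = 0.187, edgeR) and was not called, although its groups did not overlap. Eif2s1, the initiation factor subunit whose phosphorylation starts this response, was not called (0.059 ± 0.079). Non-loaded replicate 3 was the highest non-loaded library for all 6 called regulators, as it was for most cytosolic synthetase genes. Nupr1 had 0 counts, and Gcn1 was not analysed here.

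The promoters were searched because ATF4 acts through the C/EBP-ATF response element, whose core is written here as TGATGNAA. RefSeq windows on the GRCr8 assembly, from 250 bases before to 50 after the annotated start, were found by symbol or older symbol for 17 of the 20 cytosolic and all 16 mitochondrial genes. Dars, Gars and Rars had no entry. The core occurred on either strand in 7 cytosolic genes, Aars, Cars, Iars, Mars, Nars, Tars and Yars, and in 0 mitochondrial ones. Among all 33469 windows of that length 3.98% held it. Of the tested genes 78.4% had an entry, too few to stand for all of them, and 2.05% of those with an entry held the core. In each of the 7 at least 1 match had the form TGATGCAA, a subset of the core that 0.795% of all windows and 0.52% of tested genes with an entry held. The 7 are all among the called genes. The called genes Eprs, Lars and Sars have an entry and no match, as do the uncalled Farsa, Farsb, Hars, Kars, Qars, Vars and Wars. Of the 236 other genes called higher, 205 had an entry, and 7.32% of these held the core.

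The 6 genes with the smallest p among those with a match are printed on the strand of the gene, 5′ to 3′, with the core or its reverse complement in capitals. For 4 of them the stretch is the 120 bases before the start:
Iars (chr17:15193653-15193772, minus strand): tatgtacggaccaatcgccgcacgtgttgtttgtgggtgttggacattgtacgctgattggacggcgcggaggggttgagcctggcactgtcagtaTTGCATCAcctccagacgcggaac
Tars (chr2:62114803-62114922, minus strand): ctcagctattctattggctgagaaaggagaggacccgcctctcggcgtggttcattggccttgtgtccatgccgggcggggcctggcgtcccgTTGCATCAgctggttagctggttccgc
Mars (chr7:65023754-65023873, minus strand): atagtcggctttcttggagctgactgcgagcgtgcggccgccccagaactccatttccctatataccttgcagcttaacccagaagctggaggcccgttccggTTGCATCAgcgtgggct
Nars (chr18:60275783-60275902, minus strand): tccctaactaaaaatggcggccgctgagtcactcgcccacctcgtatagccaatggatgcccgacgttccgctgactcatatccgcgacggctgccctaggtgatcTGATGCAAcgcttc
In Yars and Cars the match lies after the start, and up to 11 bases on either side are given:
Yars (chr5:146820190-146820212, plus strand): acgagctcagcTGATGCAAcctg
Cars (chr1:208225334-208225363, minus strand): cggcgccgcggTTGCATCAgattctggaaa

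Counted from the start, with the base before it at −1, the match covered −24 to −17 in Iars, −27 to −20 in Tars, −17 to −10 in Mars and −14 to −7 in Nars. It covered 39 to 46 in Yars and 18 to 25 in Cars. These 4 upstream matches thus lie within 27 bases of the start. Aars held the core at −112 to −105 and again, as TGATGAAA, at 10 to 17. In Nars and Yars the motif reads along the gene and in the other 5 on the opposite strand. Counting only the 250 bases before the start, 5 of 17 cytosolic genes held the core, against 3.4% of all windows. Other motifs were searched on both strands in the same way. The cAMP response element TGACGTCA and the unfolded protein response element TGACGTGG were in 0 of the 33 matched members, against 1.83% and 0.595% of all windows and 3.24% and 0.924% of tested genes with an entry. The E-box CACGTG was in 5 of 17 cytosolic genes (Aars, Farsb, Iars, Tars and Vars) and 1 of 16 mitochondrial genes (Ears2), against 6.42% of all windows and 9.88% of tested genes with an entry. A match is a stretch of letters and does not show that a factor binds there.

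**Figure D5:**
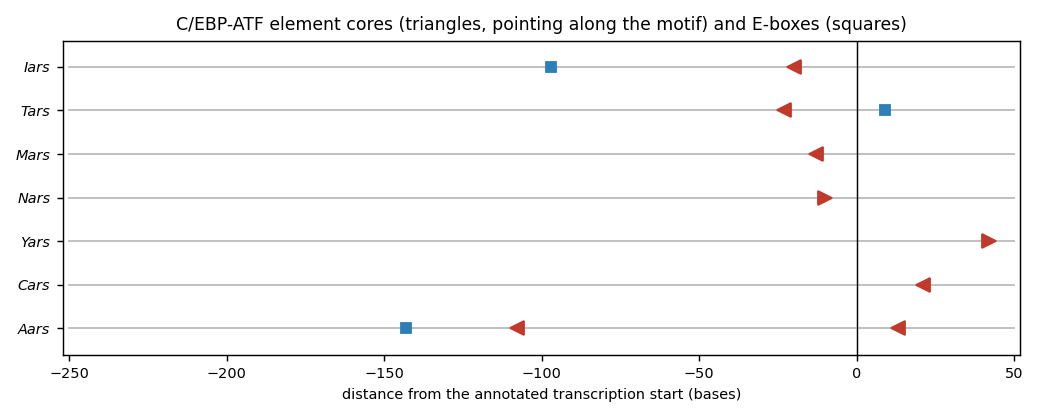
Positions of the element core (red triangles, pointing left where the motif is on the strand opposite to the gene) and of the E-box (blue squares) in the 7 synthetase genes with a core match, as distance from the annotated transcription start. In Iars, Tars, Mars and Nars the core lies within 27 bases before the start, and in Aars 1 match lies further upstream.

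The tables also hold the mean transcript length of each gene, weighted by how RSEM divided its reads among annotated transcripts. It varied between libraries in 8 cytosolic and 5 mitochondrial genes, and the groups did not overlap in 2 of the 8 and 0 of the 5, against 10.9% of the 3716 tested genes in which it varied. Both were shorter with spironolactone. For Iars the length was 4455 to 4486 bases in the non-loaded and 4429.6 to 4443 bases in the spironolactone libraries. For Nars it was 2579.7 to 2587 and 2574 to 2579 bases. With the effective lengths as an offset 11 cytosolic and 0 mitochondrial genes were called, as without them.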

How the data were processed

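RNA sequencing of 6 neuroretina libraries was deposited as 1 RSEM gene table per sample. FastQC, Trimmomatic, STAR 2.5.3a, RSEM 1.2.28 and rn6 are named in the submitters' processing notes; which annotation was used, and whether strand was, is not given in the sources used here, so reads of overlapping genes may not be told apart. Per the file headers, the authors deposited expected counts (unnormalised), TPM, FPKM (not used here) and gene lengths. RSEM divides shared reads between genes and transcripts by likelihood.

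Expected counts were rounded, genes were kept with filterByExpr, and the groups given by the treatment label were compared by two-sided quasi-likelihood tests in edgeR 4.0.16 under R 4.3.3 after TMM scaling, and p-values were adjusted over 13242 genes by the Benjamini-Hochberg method. SE is the log2 fold change over the square root of F. The test was checked on simulated counts. Alternatives used DESeq2 1.42.0, limma 3.58.1 (voom, and log2(TPM + 1) and log2(TPM + 0.1) with a trend), other scalings, filters and shrinkage, effective lengths, the title number, and each library left out. No column of another series was used. The members, gene lists and motifs were chosen with earlier results of these data known.

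By the rule, values per library are given for the 8 cytosolic members with the smallest p, all cytosolic members not called, and the 3 mitochondrial members with the smallest p. Aars, Eprs and Sars were added because they were called. Of each list, called genes and up to 2 others with the smallest p were named. Promoters were printed for up to 6 members with the core, in order of p. Promoters were taken from RefSeq windows (GRCr8), another build than rn6. A comparison of protein sequences was not made here, and some genes are not reported here.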

Additional observations from a re-analysis of the deposited data

How the results depend on the processing

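Over 11 other scalings, tools, filters and length settings, 10 to 12 cytosolic and 0 mitochondrial synthetase genes were called, with cytosolic medians of 0.54 to 0.57. DESeq2 gave 7 of the 15 mitochondrial genes no adjusted p. Leaving out each library gave 11 and 0, with cytosolic medians of 0.49 to 0.60 and mitochondrial ones of 0.019 to 0.048. A threshold of 0.1 also gave 11 and 0. Cars was not called with robust shrinkage (adjusted p = 0.11), and Rars was called without a filter. The mitochondrial median was 0.050 on log2(TPM + 1) and 0.052 on log2(TPM + 0.1). With the title number as covariate, which follows the group, 0 cytosolic genes and 0 genes in all were called (562 at an unadjusted p below 0.05), the cytosolic median was 0.20, and the log2 fold change was −0.14 for Dars, −0.037 for Eprs, −0.30 for Kars, −0.17 for Rars, −0.0066 for Vars, 0.11 for Aars2, −0.32 for Hars2, 0.088 for Lars2 and −0.081 for Tars2. In these cases the cause was not tested.

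The number of genes called over the whole table moved more: from 348 (247 higher, 101 lower) to 593 at a threshold of 0.1, 602 without a filter, 100 (82 higher, 18 lower) on log2(TPM + 1) and 95 (79 higher, 16 lower) on log2(TPM + 0.1). Leaving out a library gave 111 (without spironolactone replicate 2) to 621 (without spironolactone replicate 1), with 124 and 157 without non-loaded replicates 1 and 2 and 146 without spironolactone replicate 3.

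Of the uncalled members near 0, some changed sign. Wars was at −0.0017 with upper quartile scaling, and Rars2 at 0.0088 on log2(TPM + 1) and 0.0092 on log2(TPM + 0.1). With libraries left out the values ran from −0.022 to 0.060 for Kars, −0.039 to 0.069 for Wars, −0.12 to 0.10 for Hars2, −0.16 to 0.032 for Nars2, −0.042 to 0.048 for Vars2, −0.11 to 0.043 for Rars2, −0.048 to 0.10 for Iars2, −0.29 to 0.051 for Ears2 and −0.0025 to 0.067 for Pars2. No paired analysis was possible because the labels give the groups no shared replicate numbers.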
